A study of Phaseolus vulgaris and Phaseolus lunatus with 12 samples.

Results

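SBP genes encode plant transcription factors that share the SBP domain, a zinc-binding DNA-binding fold named after the SQUAMOSA promoter-binding proteins of snapdragon. The members were every gene whose deposited transcription-factor family label was SBP, which gave 23 of 43997 genes in *Phaseolus lunatus*, the lima bean (variety Peladilla) and 23 of 29324 genes in *Phaseolus vulgaris*, the common bean (California Red Kidney). RNA was sequenced from each species' first true leaves. They were taken from plants of 3 weeks, raised at 23 °C under a day of 16 h light and 8 h dark, detached, and either infested with 50 adult females of the two-spotted spider mite *Tetranychus urticae* per leaflet or left without mites, and were frozen at 24 h. The 4 groups were infested *P. lunatus*, control *P. lunatus*, infested *P. vulgaris* and control *P. vulgaris*, with 3 libraries each. All leaves, controls included, were detached from the plant, and the mites came from a London-strain colony kept on *P. vulgaris*. The labels do not say whether the libraries of a group came from separate plants, so the p-values measure the spread between these libraries, which may be technical. The series asks how the genetic regulation of the response to mites differs between the species.

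SBP proteins (SPL, for SBP-like, in Arabidopsis) bind DNA motifs with a GTAC core. In Arabidopsis, most are repressed by the microRNA miR156, which is abundant in young plants and declines with age, and the released SPL factors drive the change from juvenile to adult leaves and then flowering, in part through miR172, AP2-like repressors and MADS-box genes. Members that escape miR156 include SPL1, SPL7, SPL12 and SPL14 of Arabidopsis, which are longer proteins with other roles. Arabidopsis SPL9 has also been tied to defence against insects through the JAZ repressors of jasmonate signalling. Whether the bean genes carry miR156 sites was not examined here, and no sequence of them is shown.

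All 23 lima bean members carried a product name of the SBP family in the deposited table, worded like a best match in another species, and those names are used below with the species they come from. In common bean 1 of the 23 carried such a name (SPL8), so the others are given by gene ID alone. Total counts per library ran from 13317991 to 14917398 in infested and from 13936596 to 17255676 in control *P. lunatus*, and from 17264823 to 18425798 in infested and from 17283298 to 19343807 in control *P. vulgaris*. The SBP genes took 7857 to 8778 of the counts in infested and 8759 to 10645 in control *P. lunatus* libraries, and 9711 to 10813 in infested and 11525 to 12807 in control *P. vulgaris* libraries. As a check of the tissue, 27 chlorophyll a-b binding protein genes summed to 26648–48365 CPM (counts relative to library size, with TMM scaling) in infested and 59140–73363 CPM in control lima bean leaves, whereas seed storage proteins (2 of 7 genes with any count) summed to at most 1.33 CPM in infested and 4.51 CPM in control leaves. Leghemoglobin, a protein of root nodules, was at or near 0 (0–0.155 CPM in infested and 0.140–0.290 CPM in control leaves, with 1 of 7 genes counted). Photosystem subunits found by name (52 genes with counts) also lay lower in infested lima bean, at 11722–16748 CPM against 25014–26710 CPM in control leaves. These leaf genes differ between the same 2 groups that every lima bean result below compares, and their part in the results was not tested. In common bean the 7 photosystem genes with a name overlapped, at 3256–4910 CPM in infested and 3822–5342 CPM in control leaves. These are whole leaves, so fewer cells of a type and less RNA per cell cannot be told apart.

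In lima bean, 3 SBP genes were called, in both directions, and the 2 lower calls were each lost when some single libraries were left out. A gene named for SPL14 was higher in infested leaves, a gene named for SPL4 and one named for SPL8 were lower, and the family as a whole was neither up nor down. Of the 23 members, 20 had enough counts to be tested, and 3 of them were called at an adjusted p below 0.05 in the quasi-likelihood test of edgeR, Benjamini-Hochberg-adjusted over all 18523 genes tested, 1 higher and 2 lower. Of all tested lima bean genes 17.1% were called (9.65% higher and 7.46% lower), so the SBP genes were called about as often as other genes. The ranges of the infested and control libraries did not overlap in 8 of the 20 SBP genes (3 higher and 5 lower), against 37.9% of all tested genes (19.7% higher and 18.1% lower). The median log2 fold change of the 20 members was -0.02, against -0.01 over all tested genes, with 10 members above 0 and 10 below, against 51.2% of all tested genes below 0. The median size of the change, regardless of sign, was 0.39 on the log2 scale, against 0.28 over all tested genes.

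In common bean, 1 SBP gene was called, and it was lower in infested leaves. Again 20 of 23 members could be tested, and the adjustment ran over 19360 genes. The background here was small, since 0.976% of all tested genes were called, 181 of them higher (0.935%) and 8 lower (0.0413%), so that 1 of the 8 genes called lower was an SBP gene. That count of 8 was not stable, since the fit called 1 gene lower without infested replicate 1, 0 without infested replicate 2, 14 without infested replicate 3, 2 without control replicate 1, 2 without control replicate 2 and 6 without control replicate 3, and DESeq2 called 65. The library ranges did not overlap in 6 of the 20 members, 1 higher and 5 lower, against 17.0% of all tested genes (9.09% higher and 7.95% lower). Log2 fold changes were below 0 in 15 of the 20, against 50.6% of all tested genes, and their median was -0.19, against 0.00 over all tested genes. Leaving out any 1 library gave medians of -0.28 to -0.13.

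**Figure D1:**
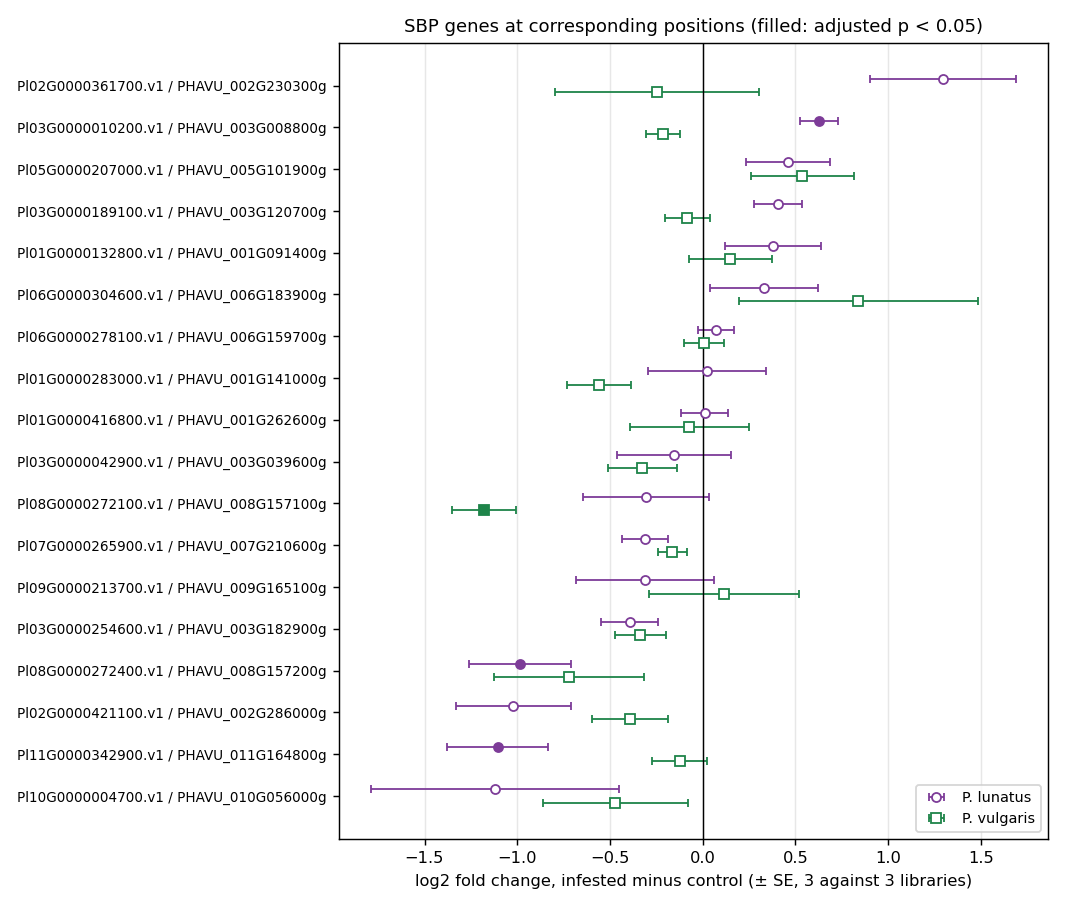
Log2 fold change of infested over control leaves (x axis, ± SE of the edgeR fit, 3 against 3 libraries) for 18 pairs of SBP genes at corresponding positions in the genomes, with *P. lunatus* as circles above *P. vulgaris* as squares and filled symbols for an adjusted p below 0.05. The SPL14-named gene Pl03G0000010200.v1 sits at 0.63 with its common bean counterpart at -0.21, and PHAVU_008G157100g, at -1.18, is the filled square.

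The most abundant SBP transcript of lima bean per kilobase of gene model did not pass the test. Pl07G0000265900.v1, named for Arabidopsis SPL1, which protects inflorescences against heat together with SPL12, led with 274, 232 and 221 CPM in infested leaves and 284, 294 and 323 CPM in control leaves. Every infested library lay below every control library, with a fitted log2 fold change of -0.31 ± 0.12 (SE, edgeR adjusted p = 0.123). Per kilobase its mean level was 74.8 CPM in infested and 92.7 CPM in control leaves, well above the next member. That next member, Pl01G0000416800.v1, named for rice SPL12, had 80.2, 67.0 and 61.6 CPM in infested and 62.4, 70.9 and 74.0 CPM in control leaves. The groups overlapped and the means were 69.6 ± 9.55 CPM in infested and 69.1 ± 6.02 CPM in control leaves (SD, n = 3 each), for a log2 fold change of 0.01 ± 0.13.

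The SPL14-named gene was the one SBP gene of lima bean that rose. Pl03G0000010200.v1 lies on the minus strand of chromosome 3, from 922760 to 929727 in the coordinates of the deposited table, whose genome build is not given in the sources used here, and its gene model holds 4969 bases. Arabidopsis SPL14 is known for plant architecture and for sensitivity to the fungal toxin fumonisin B1. The gene had 123, 129 and 141 CPM in infested leaves, against 87.9, 85.6 and 81.1 CPM in control leaves. The groups were far apart for their spread, with means of 131 ± 9.45 CPM in infested and 84.8 ± 3.47 CPM in control leaves (SD, n = 3 each) and a log2 fold change of 0.63 ± 0.10 (edgeR adjusted p = 0.00542). It was called in all 12 alternative analyses, with log2 fold changes of 0.57 to 0.67 and adjusted p of 3.80e-06 to 0.0369.

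The gene named for Arabidopsis SPL7 and the other genes named for SPL1 did not pass the test. Pl06G0000278100.v1, named for Arabidopsis SPL7, the regulator of copper supply, had 47.0, 45.9 and 46.9 CPM in infested and 41.9, 48.7 and 42.5 CPM in control leaves. The infested libraries were nearly equal and lay inside the control range (log2 fold change 0.07 ± 0.10). A second SPL1-named gene, Pl03G0000189100.v1, ranged from 17.2 to 20.6 CPM in infested and from 13.5 to 15.3 CPM in control leaves. Its ranges were apart, with a log2 fold change of 0.41 ± 0.13 that just missed the threshold (edgeR adjusted p = 0.0624). One more SPL1-named gene, Pl09G0000311600.v1, carried no family label and so was no member. It averaged 96.9 ± 6.56 CPM in infested and 91.0 ± 2.96 CPM in control leaves (SD, n = 3 each), with a log2 fold change of 0.09 ± 0.10 (edgeR adjusted p = 0.572).

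**Figure D2:**
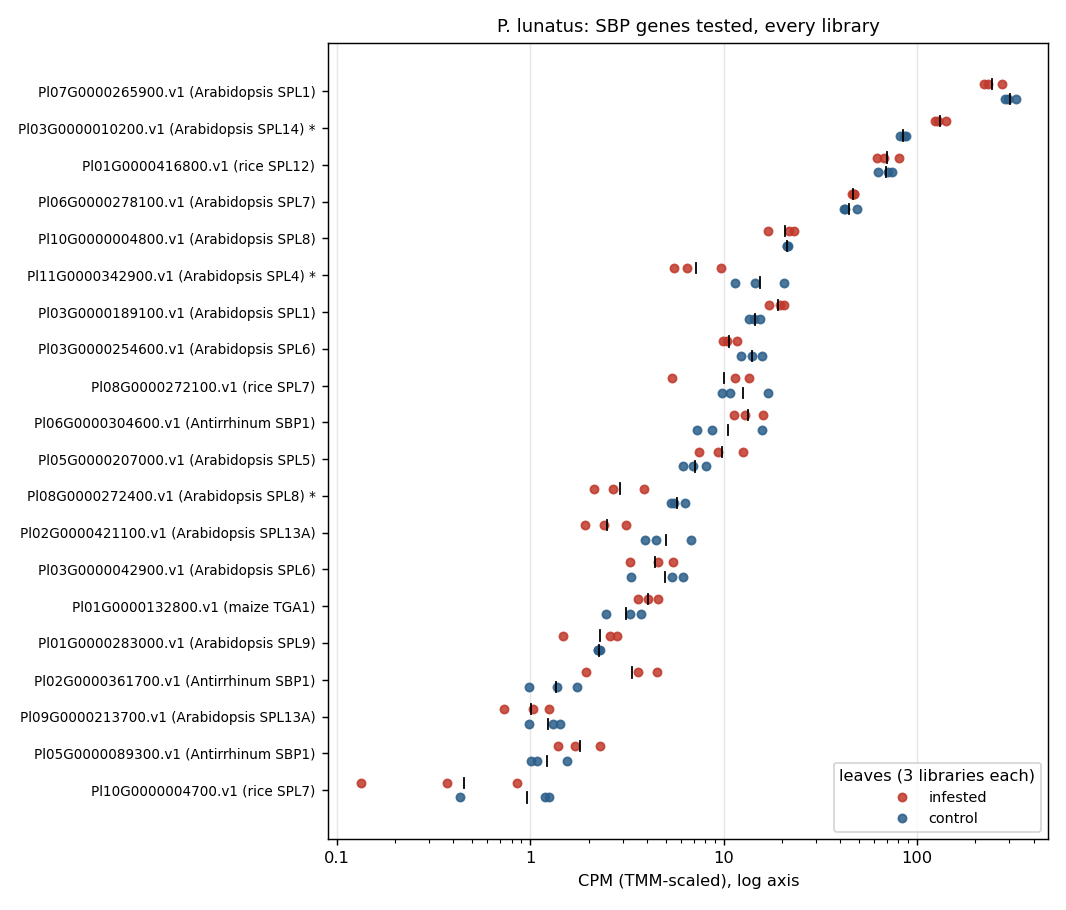
CPM (x axis, log scale) of the 20 tested SBP genes of *P. lunatus* in every library, infested in red above control in blue, with a tick at each group's mean and an asterisk at the 3 genes called. Levels spread from 0.133 CPM at the bottom to 323 CPM at the top, and the groups are apart at 8 of the 20 genes, the 3 called among them.

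Among the small SBP proteins, which in Arabidopsis (SPL3, SPL4 and SPL5) are miR156 targets of the floral transition, 1 lima bean gene fell. Pl11G0000342900.v1, named for SPL4 (chromosome 11, 42499111 to 42500418, plus strand, 777 bases), had 9.63, 6.45 and 5.56 CPM in infested leaves, against 20.4, 14.5 and 11.4 CPM in control leaves. All infested libraries lay below all control libraries. The log2 fold change was -1.10 ± 0.27 (edgeR adjusted p = 0.0280), and the call was lost without infested replicate 2 (adjusted p = 0.102), infested replicate 3 (0.113), control replicate 1 (0.0697) or control replicate 2 (0.0568).

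The genes named for snapdragon SBP1 and for SPL5 had log2 fold changes above 0 that did not pass. Pl06G0000304600.v1, named for snapdragon SBP1 (a protein first isolated by its binding to the SQUAMOSA promoter) and the fifth most abundant member per kilobase, had 16.0, 11.2 and 12.9 CPM in infested and 15.8, 8.69 and 7.24 CPM in control leaves. The ranges overlapped through control replicate 1 (log2 fold change 0.33 ± 0.29). A second SBP1-named gene, Pl02G0000361700.v1, ranged from 1.94 to 4.52 CPM in infested and from 0.981 to 1.74 CPM in control leaves, and its log2 fold change of 1.30 ± 0.39, with the ranges apart, was the highest of the family and missed the threshold (edgeR adjusted p = 0.0567). The SPL5-named Pl05G0000207000.v1 had a log2 fold change of 0.46 ± 0.23 with overlapping ranges (edgeR adjusted p = 0.207). One more SBP1-named gene, Pl05G0000089300.v1, stood at 0.57 ± 0.36 (edgeR adjusted p = 0.316) and lay with all 2352 bases of its span inside Pl05G0000089200.v1 on the opposite strand. That outer gene is named for a protein phosphatase, also holds an SBP domain without the family label, and was higher in infested leaves (89.6 ± 1.39 CPM, against 70.2 ± 4.02 CPM in control leaves, SD, n = 3 each, log2 fold change 0.35 ± 0.09, edgeR adjusted p = 0.0356). Whether counting used strand is not stated, so reads of the SBP gene and of the gene around it cannot be told apart.

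An SPL8-named gene on chromosome 8 fell. Arabidopsis SPL8, which miR156 does not target, acts in anther development and gibberellin responses. Pl08G0000272400.v1 (40363747 to 40366650, minus strand, 1690 bases) had 3.88, 2.13 and 2.67 CPM in infested leaves, against 5.31, 5.53 and 6.30 CPM in control leaves. The infested libraries all lay below the controls, at 2.89 ± 0.899 CPM in infested and 5.71 ± 0.517 CPM in control leaves (SD, n = 3 each), with a log2 fold change of -0.98 ± 0.27 (edgeR adjusted p = 0.0423). The call was lost without infested replicate 2 (adjusted p = 0.134), infested replicate 3 (0.148), control replicate 1 (0.0638), control replicate 2 (0.0850) or control replicate 3 (0.118). The other SPL8-named gene, Pl10G0000004800.v1, was the more abundant one and overlapped, with 20.6 ± 3.19 CPM in infested and 21.3 ± 0.133 CPM in control leaves (log2 fold change -0.05 ± 0.14).

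Each SPL8-named gene faced a gene named for rice SPL7 on the same chromosome. On chromosome 8 the rice SPL7-named Pl08G0000272100.v1 lay 102.5 kb away with 2 genes between, and ranged from 5.41 to 13.4 CPM in infested and from 9.81 to 16.9 CPM in control leaves (log2 fold change -0.31 ± 0.34). On chromosome 10 the partner Pl10G0000004700.v1 lay 28.9 kb away with no gene between, at 0.133 to 0.854 CPM in infested and 0.434 to 1.26 CPM in control leaves (log2 fold change -1.12 ± 0.67, edgeR adjusted p = 0.289). Within both pairs the SPL7-named partner had overlapping groups. The gene named for Arabidopsis SPL7 is a different one, on chromosome 6.

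The remaining tested lima bean members, named for SPL13A, SPL6, SPL9 and a maize gene, stayed under the threshold. The SPL13A-named Pl02G0000421100.v1 came nearest, with 1.93 to 3.12 CPM in infested and 3.92 to 6.74 CPM in control leaves. Its ranges were apart and its log2 fold change was -1.02 ± 0.31 (edgeR adjusted p = 0.0558). The other SPL13A-named gene, Pl09G0000213700.v1, had overlapping groups (-0.31 ± 0.37). Of the 2 genes named for SPL6, a factor of immune-receptor signalling in Arabidopsis, Pl03G0000254600.v1 had ranges apart at a log2 fold change of -0.39 ± 0.15 (edgeR adjusted p = 0.116), and Pl03G0000042900.v1 overlapped (-0.16 ± 0.31). Pl01G0000132800.v1, named for TEOSINTE GLUME ARCHITECTURE 1 of maize, stood at 0.38 ± 0.26, and the SPL9-named Pl01G0000283000.v1 averaged 2.29 ± 0.710 CPM in infested and 2.26 ± 0.0237 CPM in control leaves (0.02 ± 0.32).

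Low counts kept 3 lima bean members from the test. A pair of neighbours on chromosome 7, 2.8 kb apart on the same strand, had counts of 2, 4 and 2 in infested and 5, 12 and 9 in control libraries (Pl07G0000381400.v1, named for rice SPL14) and of 5, 1 and 3 in infested and 0, 1 and 1 in control libraries (Pl07G0000381500.v1, named for Arabidopsis SPL15). The SPL5-named Pl02G0000073000.v1 had 6, 0 and 2 counts in infested libraries and 0 in all 3 control libraries, and with a floor of 3 counts no statement on its change is made. In common bean, PHAVU_002G114500g, PHAVU_010G056200g and PHAVU_005G074000g were likewise too low, with at most 9 counts in an infested and 18 in a control library.

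The common bean gene that fell was PHAVU_008G157100g, on chromosome 8 from 39631062 to 39637027 (plus strand, 1622 bases). It had 7.37, 7.69 and 7.05 CPM in infested leaves, against 16.2, 20 and 13.8 CPM in control leaves. The infested libraries were tightly grouped and all below the controls, with means of 7.37 ± 0.318 CPM in infested and 16.7 ± 3.11 CPM in control leaves (SD, n = 3 each), a log2 fold change of -1.18 ± 0.17 and an edgeR adjusted p of 0.0137. The call was lost without infested replicate 1 (adjusted p = 0.0675), infested replicate 2 (0.0614) or control replicate 2 (0.0616), and the log2 fold change then and in the other 9 alternatives lay between -1.29 and -1.02. Its neighbour 168.7 kb away, facing it with no gene between, was the SPL8-named PHAVU_008G157200g, which ranged from 1.34 to 3.18 CPM in infested and from 2.56 to 4.87 CPM in control leaves (log2 fold change -0.72 ± 0.40, edgeR adjusted p = 0.579).

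The 5 most abundant common bean members per kilobase all had mean levels below control, and none passed the test. PHAVU_007G210600g led, with 188, 192 and 195 CPM in infested and 207, 221 and 216 CPM in control leaves (log2 fold change -0.16 ± 0.08, edgeR adjusted p = 0.502). PHAVU_003G008800g followed, with 113, 125 and 131 CPM in infested and 153, 139 and 135 CPM in control leaves (-0.21 ± 0.09, edgeR adjusted p = 0.452). In both genes every infested library was below every control library, by a margin that was small for the fit across all genes. PHAVU_009G219200g had 71.9, 88.8 and 76.8 CPM in infested and 89.1, 80.8 and 83.8 CPM in control leaves, and PHAVU_011G164800g had 11.1, 11.3 and 12.7 CPM in infested and 13.6, 11.2 and 13.5 CPM in control leaves. These overlapped, with log2 fold changes of -0.10 ± 0.10 and -0.12 ± 0.15. PHAVU_001G141000g, the fourth per kilobase, had 24.1, 32.5 and 23.8 CPM in infested and 34.8, 49.3 and 34.2 CPM in control leaves. Its ranges were apart, each group had its high library in replicate 2, and the log2 fold change was -0.56 ± 0.17 (edgeR adjusted p = 0.273).

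**Figure D3:**
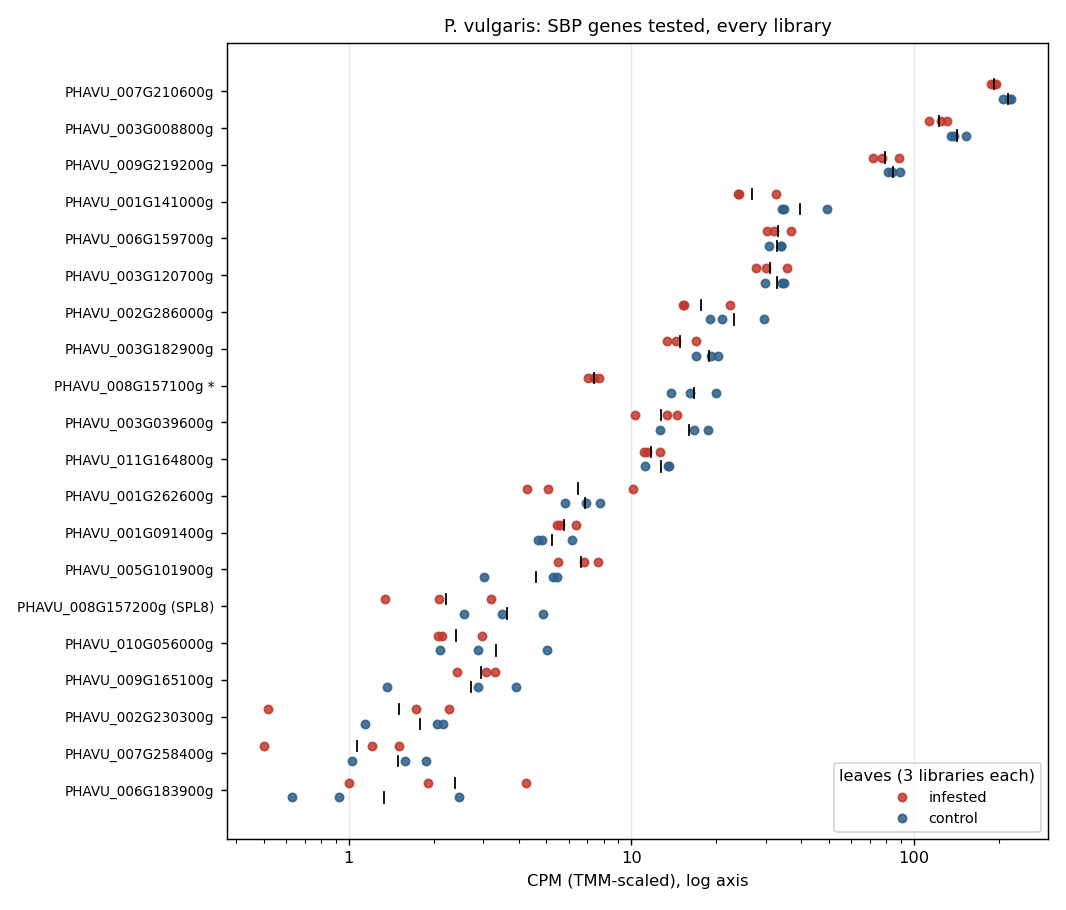
CPM (x axis, log scale) of the 20 tested SBP genes of *P. vulgaris* in every library, infested in red above control in blue, with a tick at each group's mean and an asterisk at the gene called. PHAVU_008G157100g shows the widest gap (7.05–7.69 against 13.8–20 CPM), while the most abundant gene lies at 188–195 against 207–221 CPM.

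Of the other 14 tested common bean members, PHAVU_003G182900g (-0.34 ± 0.14, edgeR adjusted p = 0.438) had the infested range below the control range, and PHAVU_005G101900g (0.54 ± 0.28, edgeR adjusted p = 0.540) had it above. The widest fold change above 0 belonged to PHAVU_006G183900g, at 0.84 ± 0.65, where infested leaves ranged from 1.01 to 4.24 CPM and control leaves from 0.631 to 2.45 CPM. Those groups overlapped, and the value was 0.13 without infested replicate 3, 0.51 without control replicate 2 and 1.61 without control replicate 3.

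Summed over all 23 members, SBP transcripts made 646, 583 and 582 CPM in infested and 608, 614 and 640 CPM in control *P. lunatus*. In *P. vulgaris* the sums were 542, 603 and 596 CPM in infested and 656, 684 and 657 CPM in control leaves. The lima bean groups overlapped, with the highest and the lowest library both infested, whereas all infested common bean libraries lay below the controls. The lead gene accounts for much of each sum. In lima bean the SPL1-named Pl07G0000265900.v1 supplied 42.4, 39.7 and 38.0% of the family sum in infested and 46.8, 47.9 and 50.4% in control leaves, without overlap. In common bean PHAVU_007G210600g supplied 34.7, 31.8 and 32.7% in infested and 31.6, 32.3 and 32.9% in control leaves, and the groups overlapped.

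**Figure D4:**
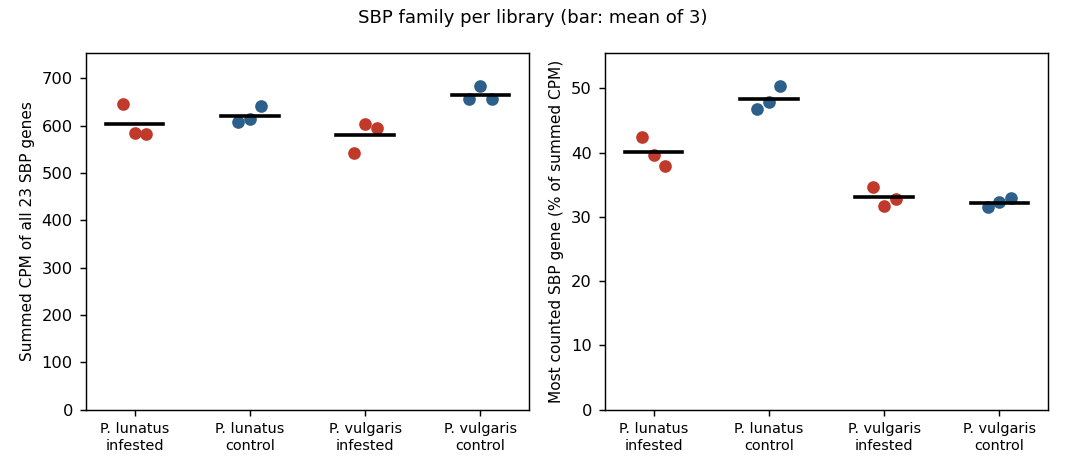
Summed CPM of all 23 SBP genes per library (left) and the share of that sum from the most counted SBP gene (right, in percent), with 3 libraries per group as points and their mean as a bar. In *P. vulgaris* the infested sums (542–603 CPM) lie below the controls (656–684 CPM), and in *P. lunatus* the share of the lead gene is 38.0–42.4% in infested and 46.8–50.4% in control leaves.

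The SBP genes of the species were matched by their position, since the tables share no gene IDs. For each of 529 combinations of a lima bean and a common bean member, the domain-family labels of 15 labelled genes on each side (30 in all) were compared. In 18 pairs each gene was the other's best match, all on chromosomes of the same number, sharing 20 to 28 labels (median 25). The facing pairs on chromosomes 8 and 10 were joined by place alone, left with left and right with right, into 4 more. This gave 22 corresponding pairs sharing at least 19 labels. The facing genes shared 19 to 21 labels both by place and crosswise, so the labels do not decide between the partners. Strand cannot decide either, since an inverted facing pair still faces. On chromosome 8 the SPL8-named genes fall together this way, and on chromosome 10 no name was at hand in common bean. The 507 combinations outside the 22 pairs shared a median of 5 labels, and 8 of them reached 19, chiefly crosswise within the facing pairs and between chromosomes 1 and 7. The highest of them, at 25 labels, was Pl07G0000381400.v1 with PHAVU_007G258400g. That common bean gene was paired with the lima bean neighbour Pl07G0000381500.v1 at 26 labels, so the choice between the neighbours is a narrow one. Proteins were not compared, so a corresponding position is not a statement of descent. Members per chromosome were equal in number except on chromosome 7 (3 in lima bean and 2 in common bean) and chromosome 9 (1 and 2), and chromosome 4 had none. The extra common bean gene of chromosome 9, PHAVU_009G219200g, shared 25 labels with the SPL1-named lima bean gene that lacks the family label.

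**Figure D5:**
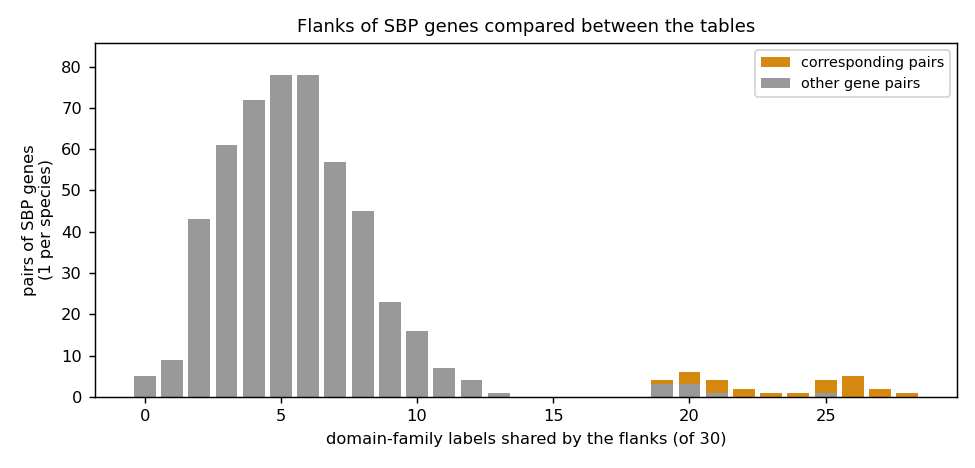
Number of gene pairs (y axis, 1 SBP gene per species) by how many of 30 flanking domain-family labels they share (x axis), with the 22 corresponding pairs in orange stacked on the other 507 pairs in grey. Most of the other pairs share few labels (median 5), and the corresponding pairs lie at 19 to 28.

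Both genes were tested in 18 corresponding pairs, and in 12 of them the log2 fold changes had the same sign, 8 below 0 in both species and 4 above 0 in both. In 5 pairs the lima bean gene was above 0 and the common bean gene below, and in 1 the reverse. Of the 15 tested pairs that were mutual best matches, 9 had the same sign. Signs were counted whatever the size of the change, also where it was smaller than its SE. The difference of the infestation effect, *P. lunatus* minus *P. vulgaris*, was tested for each pair on log2 CPM by an exact two-sided permutation test that permutes the labels within each species (400 arrangements, smallest p 0.005). None of the 18 pairs passed after Benjamini-Hochberg adjustment, and 2 had an unadjusted p below 0.05. A single pair at the smallest p cannot go below an adjusted 0.09 in a family of this size. Permuting the labels assumes no infestation effect in either species, rather than equal effects. For 2 genes that move the same way, arrangements that flip 1 species widen the difference, so the test can hardly detect a true one.

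The SPL14-named pair reached that limit. Pl03G0000010200.v1 was higher in infested lima bean by 0.62 in mean log2 CPM, PHAVU_003G008800g stood at -0.21 in common bean, and the difference of 0.84 was the largest any arrangement could give (exact permutation p = 0.005, adjusted p = 0.09). That p follows from the order of the libraries and is no separate support, since in lima bean all 3 infested libraries lay above the controls, and in common bean all 3 lay below. Without infested lima bean replicate 1, the pair passed together with the SPL9-named Pl01G0000283000.v1 and PHAVU_001G141000g (adjusted p = 0.045 for both), and without any other library no pair did. The other pair was the second SPL1-named gene Pl03G0000189100.v1 with PHAVU_003G120700g, at 0.40 and -0.09, a difference of 0.49 (exact permutation p = 0.045, adjusted p = 0.405).

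On chromosome 8 the called gene was a different partner of the facing pair in each species, the SPL8-named one in lima bean and the one across from it in common bean. The permutation test detected no species difference in either, but could hardly do so where both genes of a pair moved the same way. For the SPL8-named pair the effects were -0.99 in lima bean and -0.73 in common bean (difference -0.26, exact permutation p = 0.725), and for their facing partners -0.37 and -1.15 (difference 0.79, exact permutation p = 0.295). For the SPL4-named gene, called lower in lima bean, and PHAVU_011G164800g the effects were -1.08 and -0.12 (difference -0.96, exact permutation p = 0.140). At the lead pair on chromosome 7 they were -0.31 and -0.16 (difference -0.15, exact permutation p = 0.430).

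Genes that act around SBP factors in Arabidopsis were read from the same fits. In lima bean the small RNA machinery, which makes and uses miR156, had no gene called higher and 2 of 26 tested genes called lower, both argonautes, which is near the 7.46% of all tested genes called lower. Pl11G0000003300.v1, named for argonaute 10, which keeps miR165 and miR166 from their targets in Arabidopsis, had 15.1 ± 3.50 CPM in infested and 24.3 ± 3.15 CPM in control leaves (SD, n = 3 each, log2 fold change -0.68 ± 0.19, edgeR adjusted p = 0.0402). The PNH1-named argonaute Pl03G0000246000.v1 had 2.48 ± 0.282 CPM in infested and 4.81 ± 0.372 CPM in control leaves (-0.96 ± 0.24, edgeR adjusted p = 0.0277). The list's median log2 fold change was -0.06.

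Of 6 tested flowering regulators found by name, 2 were called, both higher, against 9.65% called higher among all tested genes. The SOC1-named Pl10G0000275100.v1 (SOC1 is a MADS-box integrator of flowering signals) had 28.4, 29.2 and 30.8 CPM in infested leaves, against 17.2, 17.4 and 19.9 CPM in control leaves, with a log2 fold change of 0.70 ± 0.11 (edgeR adjusted p = 0.00523). Pl01G0000340500.v1, named for CEN-like protein 2 of the family that holds FT and its antagonist TFL1, had 27, 71 and 89 counts in infested libraries and 0 in all 3 control libraries (edgeR adjusted p = 0.00329). Of 9 factors with a K-box, the protein-pairing domain of MADS-box floral regulators, 1 was called (17.1% of all tested genes), the MADS2-named Pl08G0000030300.v1, at 2.92 ± 1.50 CPM in infested and 0.181 ± 0.190 CPM in control leaves (SD, n = 3 each, edgeR adjusted p = 0.00902).

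The AP2 label, which covers the AP2 repressors targeted by miR172 but also the larger ERF and DREB groups, had 17 of 78 tested lima bean genes called higher and 9 lower, with a median log2 fold change of 0.04, where 9.65% of all tested genes were called higher and 7.46% lower. The 3 with the smallest p were the DREB1B-named Pl07G0000341600.v1 (3.69 ± 0.333 CPM in infested and 0.0234 ± 0.0404 CPM in control leaves), the DREB3-named Pl10G0000339100.v1 (12.5 ± 2.21 CPM in infested and 2.70 ± 0.422 CPM in control leaves) and the ERF114-named Pl01G0000107400.v1 (13.2 ± 5.19 CPM in infested and 2.65 ± 0.358 CPM in control leaves; SD, n = 3 each). Their edgeR adjusted p were 0.000380, 0.000569 and 0.00345, and all 3 names belong to stress-related groups outside the miR172 targets. Of the 13 tested genes with AP2-like names, 1 was called, lower (7.46% of all tested genes), the At1g16060-named Pl05G0000297500.v1 (1.04 ± 0.190 CPM in infested and 3.42 ± 1.42 CPM in control leaves, log2 fold change -1.72 ± 0.39, edgeR adjusted p = 0.0205), and the list's median was -0.35.

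TCP factors, which Arabidopsis SPL proteins contact in leaf development, had 4 of 20 tested genes called lower and none higher (all tested genes 7.46% and 9.65%), with a median log2 fold change of -0.24. The TCP14-named Pl02G0000173400.v1 had 27.7 ± 2.85 CPM in infested and 46.9 ± 6.14 CPM in control leaves (-0.76 ± 0.13, edgeR adjusted p = 0.00717). The TCP3-named Pl11G0000333100.v1 had 17.5 ± 3.43 CPM in infested and 32.9 ± 5.24 CPM in control leaves (-0.91 ± 0.18, edgeR adjusted p = 0.0113). A second TCP14-named gene, Pl03G0000263500.v1, had 12.2 ± 1.20 CPM in infested and 19.3 ± 2.38 CPM in control leaves (-0.67 ± 0.15, edgeR adjusted p = 0.0176; SD, n = 3 each).

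Among 34 tested copper-related genes, the domain of SPL7 in Arabidopsis, 4 were called higher and 3 lower, near the 17.1% called in either direction among all tested genes, with a median log2 fold change of 0.10. The Laccase-4-named Pl08G0000366300.v1 (36.8 ± 8.38 CPM in infested and 13.9 ± 2.66 CPM in control leaves, edgeR adjusted p = 0.00365) and a polyphenol oxidase, Pl02G0000355600.v1 (17.9 ± 3.53 CPM in infested and 6.15 ± 2.47 CPM in control leaves, edgeR adjusted p = 0.00945), rose. Another gene with the polyphenol oxidase name, Pl08G0000080200.v1, fell (1.93 ± 0.482 CPM in infested and 4.85 ± 1.04 CPM in control leaves, edgeR adjusted p = 0.0202). A weakly counted gene named for plastocyanin, a carrier of electrons in photosynthesis, also fell. This was Pl09G0000022400.v1, with 6, 8 and 4 counts in infested and 32, 26 and 20 in control libraries. Its means were 0.431 ± 0.121 CPM in infested and 1.70 ± 0.218 CPM in control leaves (edgeR adjusted p = 0.0125, SD, n = 3 each, as for the genes above).

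Of 15 tested gibberellin and DELLA genes, 2 rose and 1 fell, near the 17.1% of all tested genes, with a median log2 fold change of -0.17. Pl01G0000065900.v1, named for gibberellin 3-beta-dioxygenase 1, which makes bioactive gibberellin, rose (3.05 ± 0.772 CPM in infested and 0.138 ± 0.181 CPM in control leaves, edgeR adjusted p = 0.00502). DELLA proteins repress gibberellin responses and bind SPL factors in Arabidopsis. The DELLA protein 2-named Pl03G0000384100.v1 rose (28.7 ± 2.09 CPM in infested and 20.4 ± 2.36 CPM in control leaves, edgeR adjusted p = 0.0311) and the RGL2-named Pl06G0000232900.v1 fell (0.730 ± 0.179 CPM in infested and 2.13 ± 0.585 CPM in control leaves, edgeR adjusted p = 0.0278; SD, n = 3 each). The anthocyanin branch had 1 tested gene, which was not called.

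In common bean 3 of 82 tested AP2-labelled genes were called, all higher, against 0.935% called higher among all tested genes. They were the only calls in the lists there. Every fit with 1 library left out gave fewer than 3 list calls, with 0 without infested replicate 2 and 1 without control replicate 1. PHAVU_007G222500g had 5.36, 6.70 and 3.64 CPM in infested and 0, 0.287 and 0 CPM in control leaves (edgeR adjusted p = 0.00948). PHAVU_007G127800g had 68.8 ± 6.08 CPM in infested and 41.8 ± 3.80 CPM in control leaves (SD, n = 3 each, edgeR adjusted p = 0.0114), and PHAVU_002G055700g had 12.1 ± 5.63 CPM in infested and 3.52 ± 0.782 CPM in control leaves (edgeR adjusted p = 0.0467). No gene was called among 22 of the small RNA machinery (median log2 fold change -0.10), 21 TCP factors (-0.07), 7 K-box factors (-0.89) and 3 copper-related genes (-0.07). The other lists rest on product names that too few common bean genes carry.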

How the data were processed

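RNA sequencing of 12 leaf libraries had been summarised by the authors as raw counts per gene, in 1 deposited table per species with gene lengths and family labels, and every per-sample column was used. HISAT2, featureCounts and DESeq2 are named in the submitters' processing notes, with no version or role. Genome build, annotation and strand setting are not given in the sources used. Reads of near-identical SBP copies could be split between them by the counting.

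Each species was fitted alone in edgeR 4.0.16 (R 4.3.3): genes passing filterByExpr, TMM factors, no covariates, and the quasi-likelihood test with Benjamini-Hochberg adjustment over all tested genes. Calls are adjusted p below 0.05. The SE is the log2 fold change divided by the root of F. CPM are counts over the TMM-adjusted library size, and members are ranked by level per kilobase of the deposited gene length. The figures of levels, the family sums and the lead gene's share use CPM without that scaling, so longer gene models weigh more there. The species test used log2 CPM with a prior count of 2. The members, lists and tests were chosen with earlier results of these data known, and the matching by position was added after the tables were seen. No MIKC family label was found in the tables, so K-box factors stand in for that list, and the AP2-like names were listed after the annotation had been seen.

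Every library is given for called members and for the 5 members highest per kilobase, the rest by ranges, and from each related list the 3 called genes with the smallest p, plus a polyphenol oxidase called lower. Alternatives were other scalings, no filter, DESeq2 1.42.0, the replicate number as a block, and leaving out each library. No library pair of a group looked like a copy. In counts simulated for *P. lunatus* (18523 genes, 200 changed, 5 simulations) the fit found 58.8% of the 2-fold and 91.0% of the 4-fold changes, and 8.96% of its calls were false. For *P. vulgaris* (19360 genes) these were 65.8%, 91.2% and 7.84%. The changed genes were drawn only above a minimum level, and were far fewer than the 3170 called in *P. lunatus*. These rates therefore need not hold for that fit or for weakly counted members.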

Additional observations from a re-analysis of the deposited data

Results flagged for a closer look

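At the SPL14-named position of chromosome 3 the infested libraries went opposite ways. The pair is listed here by that very rule, library ranges apart in opposite directions, so the ranges are no separate support. Ranges were apart in 37.9% of all tested genes of *P. lunatus* and 17.0% of those of *P. vulgaris*, and PHAVU_003G008800g was not called (edgeR adjusted p = 0.452). In *P. lunatus* every infested library lay above every control library (Pl03G0000010200.v1), and in *P. vulgaris* every infested library lay below every control library (PHAVU_003G008800g). The difference of the effects, *P. lunatus* minus *P. vulgaris*, was 0.84 in mean log2 CPM, and it did not pass the exact permutation test after adjustment over the 18 pairs (p = 0.005, adjusted p = 0.09).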

How the results depend on the processing

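Under other scalings, no filter, DESeq2, a block and left-out libraries (12 alternatives), 32 of the 40 tested SBP genes kept the sign of their log2 fold change in all. Signs turned in 8 genes, none of them called, and the cause was not tested. Upper-quartile scaling gave -0.038 for Pl01G0000416800.v1, -0.025 for Pl01G0000283000.v1 and -0.00098 for PHAVU_006G159700g, library totals gave -0.023 for Pl01G0000416800.v1 and -0.0040 for Pl01G0000283000.v1, and the block gave -0.020 for Pl01G0000283000.v1. Leaving out 1 library at a time gave -0.11 to 0.093 for Pl01G0000416800.v1, -0.15 to 0.25 for Pl01G0000283000.v1, -0.38 to 0.033 for Pl03G0000042900.v1, -0.14 to 0.073 for Pl10G0000004800.v1, -0.078 to 0.066 for PHAVU_006G159700g, -0.54 to 0.15 for PHAVU_001G262600g, -0.20 to 0.47 for PHAVU_009G165100g and -0.66 to 0.16 for PHAVU_002G230300g.

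DESeq2 called 5 SBP genes in *P. lunatus* (main count 3), adding the SPL13A-named Pl02G0000421100.v1 and the SBP1-named Pl02G0000361700.v1, 455 genes in all in *P. vulgaris* (main 189) and 7 genes of the related lists there (main 3). Leaving out 1 library gave 1 to 4 SBP genes, 1317 to 3204 genes in all (main 3170, with 1485 without infested replicate 2, 1317 without infested replicate 3 and 2066 without control replicate 3), 21 to 48 of the related lists (main 45) and a median SBP log2 fold change of -0.13 to 0.027 in *P. lunatus*. In *P. vulgaris* it gave 0 to 1, 92 to 172 (at most 122 without infested replicate 1 or 2 or control replicate 2 or 3), 0 to 2 and a median of -0.28 to -0.13. The count of pairs whose species difference passed was 2 without infested *P. lunatus* replicate 1 and 0 without any other library.

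The replicate numbers did not pair the samples by the check used (correlation of deviations over 0.1 in every pair), since same-numbered *P. lunatus* libraries correlated at -0.22, 0.05 and -0.18 and *P. vulgaris* libraries at 0.14, 0.09 and 0.21, although in *P. vulgaris* every library correlated best with its own number. With the number as a block, 1617 genes in all, 23 of the related lists and 2 SBP genes were called in *P. lunatus*, where the SPL8-named Pl08G0000272400.v1 was no longer called (edgeR adjusted p = 0.0961). In *P. vulgaris* the block called 539 genes in all (134 lower), 5 of the related lists and 2 SBP genes, PHAVU_001G141000g being added (edgeR adjusted p = 0.0108). Precision is limited by 3 libraries a group and, for members near 1 CPM, by their counts.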
